A study of Mus musculus with 6 samples.

Results

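The semaphorin, netrin and Slit genes of axon guidance and the genes of their receptors were described in RNA-seq libraries of mouse WNT medulloblastoma, a hindbrain tumour driven by active WNT signalling. The genes were chosen by symbol alone from the 34591 gene rows: semaphorins of classes 3 to 7, netrins and Slits as ligands, and plexins, neuropilins, Robo receptors, Unc5 receptors and Dcc as receptors. This gave 47 genes, 27 ligands and 20 receptors. Of these, 44 passed the filter on low counts, 25 ligands and 19 receptors, and Robo3, Sema5b and Slit1 did not. The labels name 3 libraries as sh2-Ift88, for a short hairpin RNA against Ift88, which encodes a subunit of the transport complex that builds primary cilia, and 3 libraries as controls. They are called shIft88 1 to 3 and control 1 to 3 here, and the labels describe both groups as medulloblastoma models in mouse brain. The labels do not state the strain, the age, the alleles that make these models, the carrier of the hairpin or how many animals were used. The p-values thus weigh the difference between the groups only against the spread of these samples, and part of that spread may be technical.

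Semaphorins, netrins and Slits are cues, secreted or held at the cell surface, that attract or repel growing axons and migrating neurons. Class 3 semaphorins signal mostly through neuropilins paired with class A plexins, while the membrane-bound classes bind plexins directly. Netrins attract through Dcc and repel through Unc5 receptors, and Slits repel through Robo receptors. In the hindbrain, netrin and Slit signals steer the precursor neurons that leave the rhombic lip, the dorsal germinal zone of the hindbrain, and class 6 semaphorins with class A plexins guide cerebellar granule cells.

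Gene counts summed to between 26802618 and 33772559 per library. Ift88 was at 14.7, 16.0 and 14.4 CPM (reads of a gene per 1000000 reads of the library, with the total scaled for library composition) in libraries labelled shIft88, against 13.8, 19.7 and 13.7 CPM in controls. Its log2 fold change was -0.064 ± 0.27 (SE; edgeR's quasi-likelihood test, adjusted p = 0.9995), so a lower level of the hairpin's target was not found in the libraries that carry its label. Of 6 WNT tumour markers, Wif1, Axin2, Nkd1 and Lef1 reached at least 1346, 320, 263 and 69.0 CPM in every library, while Dkk2 ran from 1.98 to 87.9 CPM and Dkk4 stayed at or under 0.687 CPM. Some libraries stood apart. Library shIft88 3 had a composition factor of 0.598, against 1.05 to 1.24 in the other libraries, and 10.2% of its reads did not align. Libraries shIft88 2, shIft88 3 and control 2 had reads on 564, 387 and 492 olfactory receptor genes, which are mostly silent in brain, against 24 to 38 in the other libraries. Snap25, a synaptic protein of mature neurons, was at 90.4, 44.3 and 1.06 CPM in libraries labelled shIft88, against 0.545, 68.0 and 199 CPM in controls.

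Guidance genes covered a wide range of levels, and a few receptors and semaphorins made up most of the signal. Levels per kilobase of exon, with exons joined over all annotated transcripts of a gene, allow only a rough comparison between genes. On this scale, 8 of the 47 genes averaged at least 10 CPM per kb over the 6 libraries. Another 22 lay between 1 and 10, and 17 lay below 1. Plxnb2, a class B plexin that cerebellar granule cell precursors carry, was the highest at 56.4 CPM per kb. It was followed by the repellent Sema3a at 25.6, Sema3d at 17.9, the Slit receptor Robo2 at 16.6, Sema5a at 15.2, Unc5b at 14.7, Nrp1 at 14.6 and Ntn1 at 10.4 CPM per kb. For these 8 genes, the ranges of neighbours in the order overlapped over the libraries. In plain CPM, 20 of the 47 genes stayed at or above 10 CPM in every library.

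**Figure D1:**
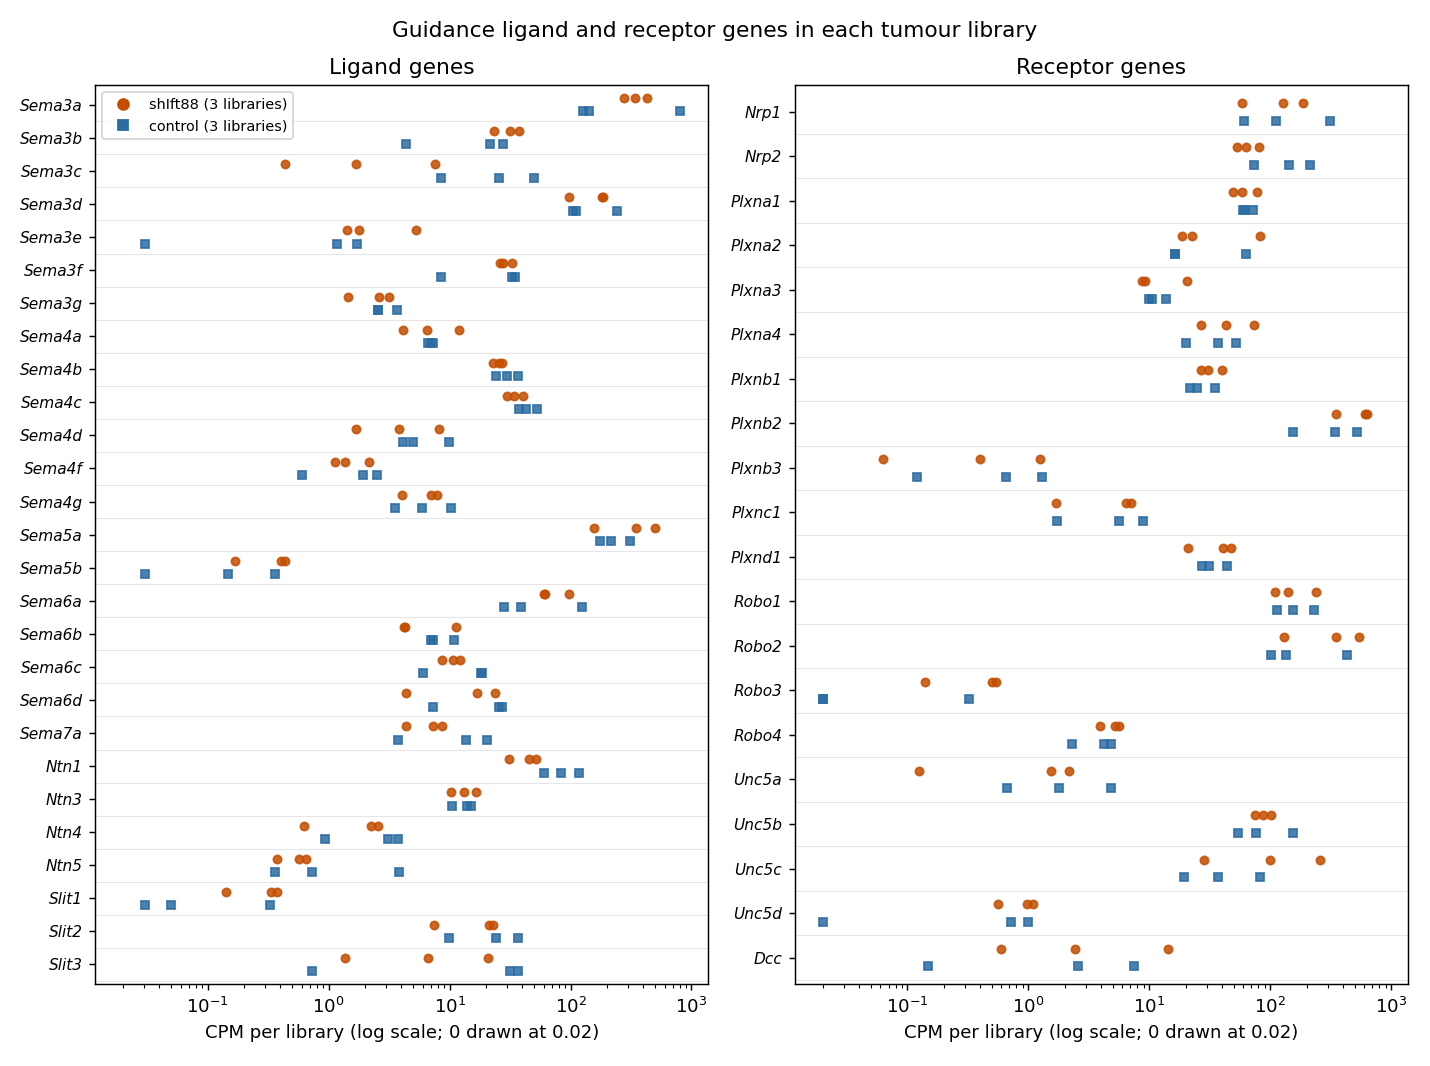
Level of each guidance gene in each library, in CPM on a log axis, with ligands on the left and receptors on the right. Circles are the 3 libraries labelled shIft88 and squares the 3 controls. The groups overlap for all tested genes but Sema3c and Ntn1.

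Between the groups, no guidance gene passed the test. Of 44 tested genes, 0 had an adjusted p under 0.05 in edgeR's quasi-likelihood test, and over all 16768 genes tested the share was 0%. DESeq2 called 0 of the 44, where it called 0.346% of all genes, and limma-voom called 0 of the 44 and 0% of all genes. At an unadjusted p under 0.05, 3 guidance genes were lower in libraries labelled shIft88, against 1.26% of all genes, and 0 were higher, against 1.97% of all genes. The 3 were the ligands Ntn1 and Sema3c and the receptor Nrp2. By sign of the fold change, 8 of 25 tested ligands were higher and 17 lower, and 11 of 19 receptors were higher and 8 lower, where 48.7% of all genes were higher and 51.3% lower. The median log2 fold change was -0.29 for ligands and 0.17 for receptors, against -0.012 for all genes. The receptor median was -0.24 without shIft88 2 and -0.053 with library totals alone, where that of all genes was -0.33, and the ligand median was -0.016 without shIft88 3.

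**Figure D2:**
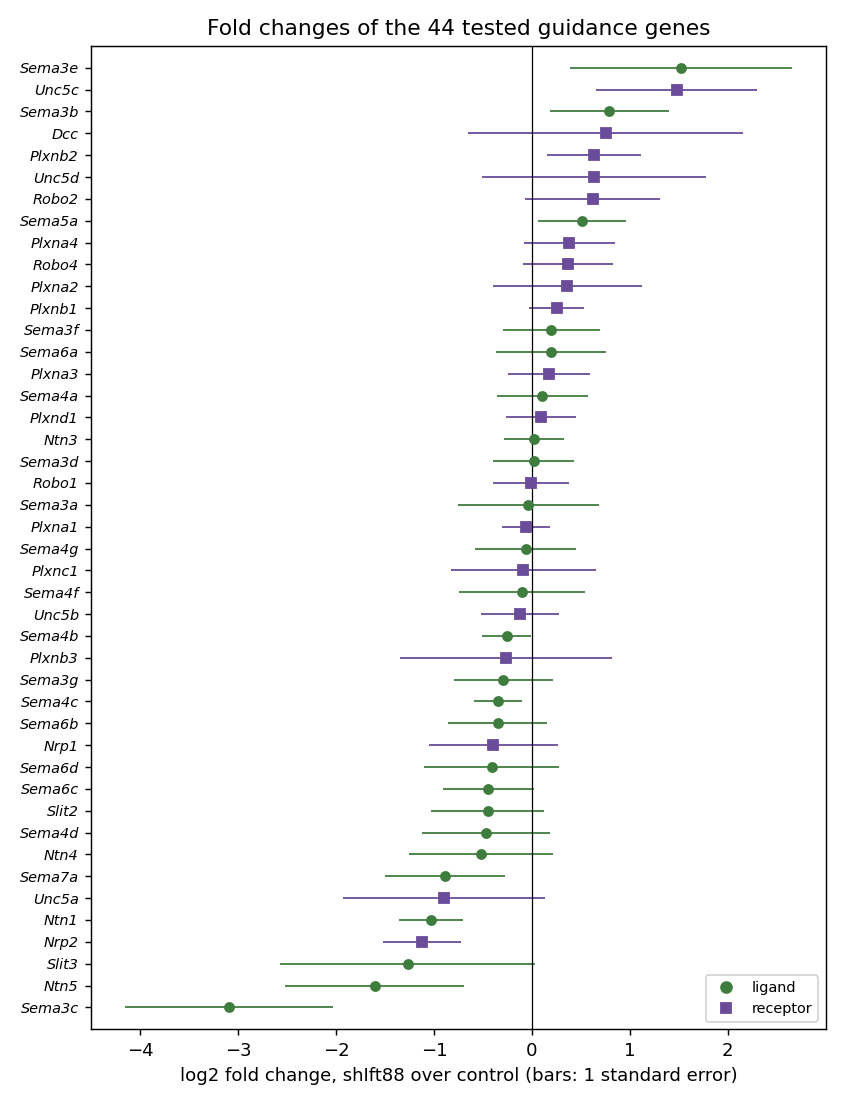
Log2 fold change of libraries labelled shIft88 over controls for the 44 tested guidance genes, ordered by size, with bars of 1 standard error. Circles are ligands and squares receptors. Sema3c, at -3.10, lies farthest from 0, and 0 of the 44 genes passed the threshold.

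Among the class 3 semaphorins, Sema3c was the one whose groups did not overlap. Sema3c, a secreted ligand of neuropilin and plexin receptors, was at 7.61, 1.68 and 0.437 CPM in libraries labelled shIft88, against 25.8, 50.2 and 8.45 CPM in controls. The highest value in libraries labelled shIft88 lay just under the lowest control. Its log2 fold change was -3.10 ± 1.06 (SE; edgeR's quasi-likelihood test, unadjusted p = 0.0218, adjusted p = 0.9995), and it was -4.70 without shIft88 1. Of all tested genes, 3.69% had all libraries labelled shIft88 below all controls, and of the guidance genes 2 of 44 did, Sema3c and Ntn1. The opposite, all libraries labelled shIft88 above all controls, held for 4.7% of all genes and 0 of the 44.

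Sema3a, a repellent of many axons and the most abundant ligand per kilobase, was at 431, 342 and 278 CPM in libraries labelled shIft88, against 128, 811 and 141 CPM in controls. Control 2 was thus far above the other controls, and the libraries labelled shIft88 lay between. Sema3d, a secreted ligand of the same class, was at 183, 184 and 98.1 CPM in libraries labelled shIft88, against 105, 112 and 242 CPM in controls. Sema3b was at 31.4, 37.7 and 23.3 CPM in libraries labelled shIft88, against 27.5, 21.6 and 4.35 CPM in controls. Its low value stood in control 3, and its log2 fold change of 0.79 ± 0.61 (SE) was 0.32 without that library. Sema3e, a ligand that binds Plxnd1 without a neuropilin, was at 1.41, 1.78 and 5.25 CPM in libraries labelled shIft88, against 0.0303, 1.17 and 1.71 CPM in controls. Its log2 fold change was 1.52 ± 1.14 (SE), and 0.67 without shIft88 3. Control 1 held a single read of Sema3e. The other members of the class, Sema3f and Sema3g, averaged 5.23 and 0.588 CPM per kb.

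The neuropilins, which carry the class 3 signal together with plexins, were abundant and variable. Nrp2 was at 53.3, 63.6 and 80.7 CPM in libraries labelled shIft88, against 143, 74.1 and 214 CPM in controls. The groups overlapped, because control 2 lay below shIft88 3. The log2 fold change of Nrp2 was -1.13 ± 0.40 (SE; edgeR's quasi-likelihood test, unadjusted p = 0.0246, adjusted p = 0.9995), and -0.72 without control 3. Nrp1, which also serves as a receptor for VEGF in vessels, was at 58.0, 185 and 127 CPM in libraries labelled shIft88, against 314, 111 and 61.2 CPM in controls. Both groups thus spanned a wide range of Nrp1, with the extremes in control 1 and shIft88 1. Endothelial markers, summed over 8 genes, were at 151, 144 and 96.8 CPM in libraries labelled shIft88, against 170, 123 and 75.4 CPM in controls, and each of the 8 had reads in every library. Their part in the level of Nrp1 was not tested.

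Nrp2 and Sema3c, a receptor and a ligand of the same branch, both had an unadjusted p under 0.05 without passing the test, and the 250 bases before their starts are shown. The sequences are from RefSeq in build GRCm38.p6, are on the plus strand, and were searched on both strands for CTTTGAT, the consensus that TCF and LEF factors of the WNT pathway bind. Capitals mark a match. The counts themselves were made on another build.
Nrp2 upstream, chr1:62703067-62703316: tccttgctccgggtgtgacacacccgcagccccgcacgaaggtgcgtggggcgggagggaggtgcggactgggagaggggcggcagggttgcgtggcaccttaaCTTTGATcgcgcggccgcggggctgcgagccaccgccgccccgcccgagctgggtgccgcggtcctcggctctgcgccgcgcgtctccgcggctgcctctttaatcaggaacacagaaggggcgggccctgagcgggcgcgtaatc
Sema3c upstream, chr5:17574566-17574815: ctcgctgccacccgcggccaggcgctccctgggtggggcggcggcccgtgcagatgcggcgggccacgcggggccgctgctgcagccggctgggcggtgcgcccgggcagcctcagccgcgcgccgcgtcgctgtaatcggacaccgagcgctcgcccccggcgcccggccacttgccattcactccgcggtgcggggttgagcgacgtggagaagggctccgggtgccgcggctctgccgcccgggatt
Nrp2 held 1 match, and Sema3c held 0. Of the 38 guidance genes with an entry, Nrp2 was the only one with a match in this window, 2.63% of them, against 3.72% of the 27025 genes in the whole table. Ntn1, which also had an unadjusted p under 0.05, had no entry and was not searched. Both windows were rich in G and C, at 72.4% for Nrp2 and 78.4% for Sema3c.

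Plexins, the semaphorin receptors, formed the most abundant receptor family. Plxnb2 was at 608, 634 and 348 CPM in libraries labelled shIft88, against 346, 524 and 154 CPM in controls. The groups overlapped, because control 2 lay above shIft88 3. The log2 fold change was 0.64 ± 0.48 (SE), and 0.28 without control 3. Of the class A plexins, which pair with neuropilins and also bind class 6 semaphorins, Plxna1 was the most even, at 59.0, 77.1 and 49.7 CPM in libraries labelled shIft88, against 59.9, 72.3 and 62.1 CPM in controls. Plxna2 was high in one library of each group, at 18.5, 82.2 and 22.7 CPM in libraries labelled shIft88, against 16.2, 63.7 and 16.2 CPM in controls. The 2 high libraries, shIft88 2 and control 2, are among the 3 with reads on olfactory receptor genes, and shIft88 3 is the third. These values for Plxna1 and Plxna2 were chosen after they were seen. Plxna3, Plxna4, Plxnb1 and Plxnd1 averaged between 1.54 and 4.82 CPM per kb, and Plxnb3 and Plxnc1 averaged 0.0971 and 0.627 CPM per kb.

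Semaphorins of classes 4 to 7, which span the membrane or are anchored to it and can act as receptors too, did not separate the groups. Sema5a, a class 5 semaphorin with thrombospondin repeats, was the most abundant, at 346, 497 and 156 CPM in libraries labelled shIft88, against 177, 215 and 310.4 CPM in controls. Sema6a, a ligand of class A plexins, was at 59.9, 97.3 and 61.5 CPM in libraries labelled shIft88, against 39.1, 123 and 28.4 CPM in controls. Sema4c, a ligand of Plxnb2, was steadier, at 29.9, 34.2 and 40.2 CPM in libraries labelled shIft88, against 52.6, 42.9 and 37.3 CPM in controls. The groups crossed only between shIft88 3 and control 3, and the log2 fold change was -0.35 ± 0.24 (SE). Sema7a, a lipid-anchored ligand of Plxnc1 and integrins, was at 8.60, 7.33 and 4.37 CPM in libraries labelled shIft88, against 3.76, 13.7 and 20.2 CPM in controls. Its log2 fold change was -0.89 ± 0.61 (SE), and -0.36 without control 3. The remaining class 4 genes ran from 0.606 CPM, for Sema4f in control 1, to 36.8 CPM, for Sema4b in the same library. Sema6b, Sema6c and Sema6d averaged between 1.65 and 2.09 CPM per kb.

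Netrin transcripts were mostly Ntn1, the secreted guide of commissural axons and of neurons that leave the rhombic lip, and Ntn1 was lower in every library labelled shIft88 than in any control, though it did not pass the test. Ntn1 was at 45.4, 30.9 and 52.2 CPM in libraries labelled shIft88, against 118, 60.8 and 82.8 CPM in controls. The means were 42.8 ± 10.9 CPM in libraries labelled shIft88 and 87.3 ± 29.0 CPM in controls (SD, n = 3 each), and the log2 fold change was -1.03 ± 0.33 (SE; edgeR's quasi-likelihood test, unadjusted p = 0.0155, adjusted p = 0.9995). It was the smallest unadjusted p among the guidance genes, and over the alternatives the fold change ran from -1.39 to -0.75 with a lowest adjusted p of 0.522. Ntn5 was at 0.651, 0.571 and 0.375 CPM in libraries labelled shIft88, against 0.727, 0.358 and 3.83 CPM in controls. Control 3 alone was high, and the log2 fold change of -1.61 ± 0.92 (SE) was -0.020 without it. In addition, 23.4% of the exon bases of Ntn5 overlap another gene in the annotation at hand, so its reads are uncertain. Ntn3 was even, from 10.4 to 16.5 CPM in libraries labelled shIft88 and from 10.5 to 15.0 CPM in controls.

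Among the netrin receptors, the repulsive Unc5b and Unc5c were abundant per kilobase, and Unc5a, Unc5d and Dcc were low. Unc5b was at 74.6, 101 and 88.0 CPM in libraries labelled shIft88, against 156, 76.9 and 54.2 CPM in controls, so the controls spanned the libraries labelled shIft88. Unc5c, which cerebellar granule cells need for correct migration, was at 99.7, 257 and 28.5 CPM in libraries labelled shIft88, against 37.4, 81.7 and 19.4 CPM in controls. The highest value stood in shIft88 2. The log2 fold change of Unc5c was 1.48 ± 0.82 (SE), and 0.47 without that library. Dcc, the attractive netrin receptor, was at 0.594, 14.2 and 2.44 CPM in libraries labelled shIft88, against 7.54, 2.57 and 0.148 CPM in controls, so the groups overlapped. Dcc averaged 0.348 CPM per kb, against 14.7 for Unc5b and 4.56 for Unc5c. Unc5a and Unc5d averaged 0.445 and 0.0785 CPM per kb. Values of Dcc were chosen after they were seen.

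Averaged over the 6 libraries and per kilobase, Robo1 and Robo2 were more abundant than each of the Slit ligands that bind them. Robo3 and Robo4 were below Slit3, while Robo4 was close to Slit2 and Robo3 was close to Slit1. Robo2 was at 547, 349.8 and 129 CPM in libraries labelled shIft88, against 101, 431 and 135 CPM in controls. Robo1 was at 241, 141 and 110.3 CPM in libraries labelled shIft88, against 229, 114 and 154 CPM in controls. For both receptors the groups overlapped. Per kilobase, Robo2 and Robo1 averaged 16.6 and 9.98 CPM, against 2.69 for Slit3, 0.801 for Slit2 and 0.0354 for Slit1, while Robo4 and Robo3 averaged 0.825 and 0.0366. The margin was small in some libraries: in control 3 Slit3 was at 6.03 CPM per kb and Robo2 at 7.96. In plain CPM, Slit2 averaged 20.4 and Slit3 16.3, so the order of these 2 ligands turned with the scaling by length. Robo4, the receptor of vessel endothelium, ran from 3.94 to 5.64 CPM in libraries labelled shIft88 and from 2.30 to 4.88 CPM in controls. Robo3, which tunes midline crossing, had 5, 16 and 8 reads in libraries labelled shIft88, against 0, 10 and 0 in controls, and a count of 0 allows up to 0.0909 CPM in control 1 and 0.0742 CPM in control 3. Values of Robo3 were chosen after they were seen.

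Summed over genes and scaled by exon length, ligand transcripts were below receptor transcripts in every library labelled shIft88 and in control 1. Ligands summed to 129, 134 and 88.4 CPM per kb in libraries labelled shIft88, against 102, 164 and 117 CPM per kb in controls. Receptors summed to 177, 199.6 and 112 CPM per kb in libraries labelled shIft88, against 156, 164 and 90.9 CPM per kb in controls. The ratio of ligands to receptors was 0.729, 0.673 and 0.789 in libraries labelled shIft88, against 0.656, 1.01 and 1.29 in controls. The lowest and the highest ratio both stood in controls, so the groups overlapped. Without scaling by length, control 2 turned to below 1, at 0.979. Plxnb2, the most abundant receptor per kilobase, is part of the receptor sum. Its lowest value stood in control 3, the library with the highest ratio. In control 2, at a ratio of 1.01, Plxnb2 was at 67.9 CPM per kb and Sema3a was at its highest, 58.5 CPM per kb. The part of single genes in the ratio was not tested.

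**Figure D3:**
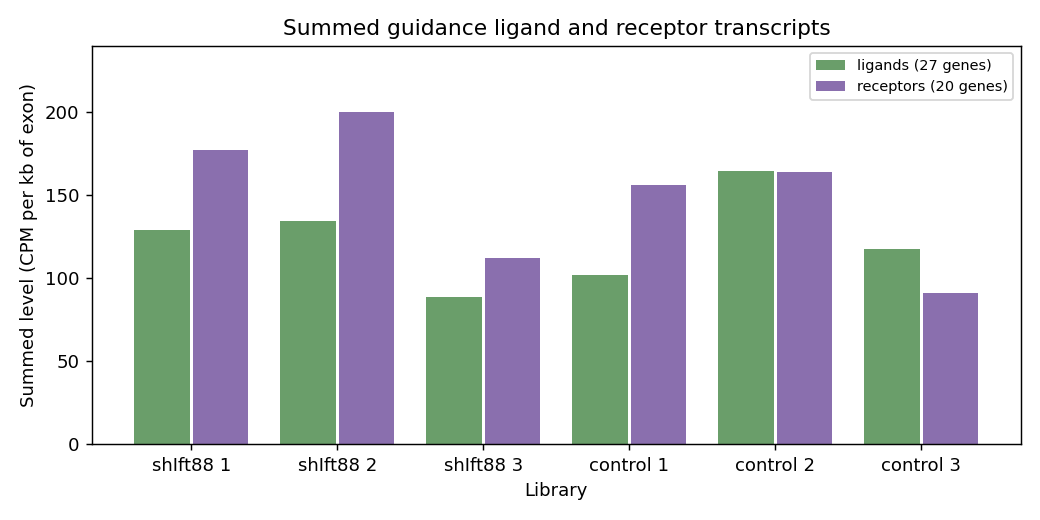
Summed level of the 27 ligand genes and the 20 receptor genes in each library, in CPM per kilobase of exon. Libraries labelled shIft88 are on the left and controls on the right. Receptors exceed ligands in the 3 libraries labelled shIft88 and in control 1, and the ratio is 1.29 in control 3.

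More guidance genes separated the libraries by their level of Snap25 than by their label, and the same held over all genes. Ordered by Snap25, the libraries fall apart at the widest gap into 2 with low values, shIft88 3 and control 1, and 4 with higher values. This split is made from the data and is no group of the study, so values are given per library with no test. Of the 44 tested guidance genes, 15 were lower in both libraries of low Snap25 than in each of the other 4, which is 34.1%, against 12% of all genes. Of these 15, 9 were ligands and 6 receptors. With shIft88 3 or control 1 left out, a single library stands for low Snap25, and the count cannot fall below 15. It was 17 without shIft88 3, against 22.4% of all genes, and 23 without control 1, against 21.6%. With all 6 libraries, the opposite direction held for 0 of 44, against 8.77% of all genes. By label, 2 of the 44 were lower and 0 higher in all libraries labelled shIft88, against 3.69% and 4.7% of all genes. Some of these genes passed the filter only through the libraries in which they are high. In bulk samples, fewer cells of a type and less RNA per cell cannot be told apart.

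The widest gap was that of Slit3. Slit3 was at 1.37 CPM in shIft88 3 and 0.727 CPM in control 1, against 20.6 and 6.59 CPM in shIft88 1 and 2 and 31.9 and 36.6 CPM in control 2 and 3. Slit2 was at 7.50 CPM in shIft88 3 and 9.84 CPM in control 1, against 21.1 and 23.1 CPM in shIft88 1 and 2 and 36.6 and 24.2 CPM in control 2 and 3. Both were thus low in the same pair of libraries, with gaps of 2.26 for Slit3 and 1.10 for Slit2 on the log2 scale. Slit1, which was not tested, differed within that pair. It was highest in shIft88 3, at 0.375 CPM from 6 reads, and lowest in control 1, at 0.0303 CPM from 1 read. Sema6d, a class A plexin ligand, was at 4.37 CPM in shIft88 3 and 7.30 CPM in control 1, against 16.8 to 27.0 CPM in the other 4. Ntn4, a netrin of basement membranes, was at 0.625 CPM in shIft88 3 and 0.939 CPM in control 1, against 2.25 to 3.76 CPM in the other 4. Plxnc1 and its ligand Sema7a were low together. Plxnc1 was at 1.69 CPM in shIft88 3 and 1.73 CPM in control 1, against 5.66 to 8.81 CPM in the other 4. Sema7a was at 4.37 CPM in shIft88 3 and 3.76 CPM in control 1, against 7.33 to 20.2 CPM in the other 4. Unc5a was at 0.125 CPM in shIft88 3, which is 2 reads, and 0.666 CPM in control 1, against 1.55 to 4.82 CPM in the other 4. Plxnb3, a plexin of oligodendrocytes, had 1 read in shIft88 3 and 4 reads in control 1, against 14 to 53 reads in the other 4. The remaining 7 of the 15 were Sema3d, Sema4f, Sema4g, Sema5a, Plxnd1, Robo2 and Unc5d, and for Robo2 and Sema3d the gap was slight, at 0.063 and 0.088 on the log2 scale.

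**Figure D4:**
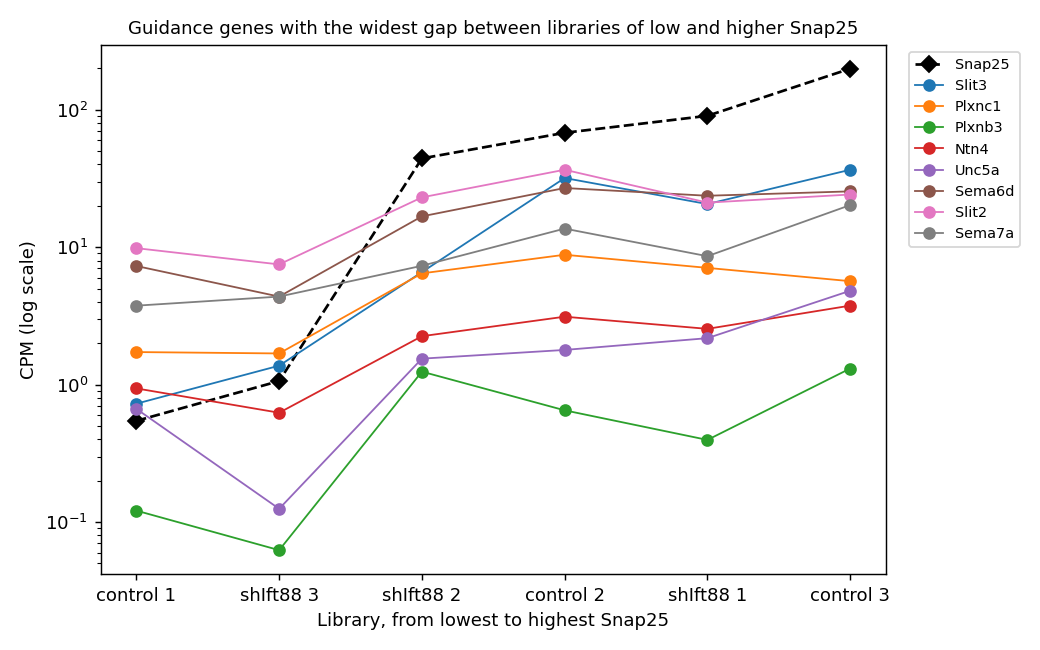
Level of Snap25 and of the 8 guidance genes with the widest gap, in CPM on a log axis, in libraries ordered from low to high Snap25. Lines join the values of one gene. All 8 genes are lower in control 1 and shIft88 3 than in each of the other 4 libraries.

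Markers of several normal cell types moved with this split. The mature neuron list holds Snap25 itself, the gene that made the split. In it, 9 of 10 genes were lower in both libraries of low Snap25, against 12% of all genes. The list summed to 20.6 and 59.8 CPM there, against 161 to 475 CPM in the other 4. The exception, Stmn2, was at 1.06 CPM in shIft88 3 but 40.2 CPM in control 1, against 5.75 to 61.4 CPM in the other 4. Of the markers of cerebellar granule and Purkinje cells, 7 of 8 were lower in both, and Gabra6 had 0 reads in control 1. The exception, Calb1, was at 0.151 CPM in control 1 but 16.1 CPM in shIft88 3, above its 10.7 CPM in shIft88 2. Astrocyte markers (5 of 6) summed to 46.2 and 34.5 CPM in shIft88 3 and control 1, against 231 to 551 CPM in the other 4. Oligodendrocyte markers (7 of 8) summed to 23.2 and 21.7 CPM there, against 64.1 to 256 CPM, with Olig1 at 0 in shIft88 3. The remaining marker, Sox10, was at 0 in shIft88 3 and also in shIft88 1, a library of higher Snap25. In the other lists, 3 of 6 microglia markers, 2 of 8 endothelial markers, 1 of 8 mural and fibroblast markers, 1 of 5 choroid plexus and ependyma markers and 0 of 6 WNT tumour markers were lower in both. The WNT tumour markers Nkd1 and Lef1, 2 of 6, were higher in both, against 8.77% of all genes. No marker of the normal cell types was higher in both. The part of each cell type in the levels of the guidance genes was not tested. With Snap25 as a covariate 0 guidance genes passed in edgeR, and the log2 fold changes of Ntn1, Sema3c and Nrp2 stayed below 0. Each group holds 1 library of low Snap25, so this covariate is nearly balanced over the groups. The fit thus cannot show whether these fold changes depend on neuron content.

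Partner genes of the receptors, a list of 55 cytoplasmic and membrane partners, of which 54 had rows and were tested, gave no call between the groups. In edgeR 0 of the 54 passed the threshold and 0 had an unadjusted p under 0.05, against 3.23% of all genes, while DESeq2 and limma-voom also called 0. By sign, 28 were higher and 26 lower, with a median log2 fold change of 0.0052. The gene of smallest p was Fyn, a kinase that acts downstream of Dcc and plexins, at 110.1, 44.2 and 70.6 CPM in libraries labelled shIft88, against 44.2, 49.2 and 29.1 CPM in controls, a log2 fold change of 0.88 ± 0.38 (SE). Rac1, the GTPase of growth cone movement, was at 235, 178 and 271 CPM in libraries labelled shIft88, against 189.9, 142 and 172 CPM in controls. Vasp, an actin regulator, was at 39.0, 46.0 and 35.5 CPM in libraries labelled shIft88, against 64.0, 44.7 and 52.1 CPM in controls. For Rac1 and Vasp the groups overlapped by 1 library each. Islr2 stayed at or under 0.999 CPM in every library. Of the 54, 12 were lower in both libraries of low Snap25, 22.2%, against the 12% of all genes, and 3 were higher in both, against 8.77% of all genes.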

How the data were processed

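RNA-seq libraries were made from total RNA with a stranded kit, per the labels' protocols. The submitters' processing notes name BWA and the build mm9, with strand setting, annotation and counting program not given in the sources used here. Raw counts of reads per gene were deposited by the authors, 1 table per library. Closing tallies were left out: reads without a feature took 18.8% to 39.5%, ambiguous reads 0.876% to 4.37% and unaligned reads 2.93% to 10.2% of all tallied reads.

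Groups came from the sample descriptions. Counts were filtered with filterByExpr, scaled with TMM and tested over all 16768 genes with edgeR 4.0.16 in R 4.3.3 (quasi-likelihood test, robust, two-sided, Benjamini-Hochberg at 0.05); the test was checked on simulated data. CPM uses the TMM-scaled totals. Exon lengths and overlaps came from GENCODE vM21, matched by symbol. Lengths join the exons of all transcripts of a gene and may differ from those of the annotation behind the counts. Of the 47 genes, 11 overlap another gene's exons, and those counts are uncertain. DESeq2 1.42.0, limma-voom 3.58.1, other scalings, filters, left-out libraries and covariates were alternatives.

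The genes and lists were chosen with earlier results of these data known. Fold changes are given for the 10 guidance genes of smallest p, values per library also for the 12 with the highest CPM per kb and the 8 with the widest gap by Snap25, and the 4 partner genes of smallest p are named. Other genes are given by range or marked as chosen once their values were known. Floors of 3 counts cover counting error only.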

Additional observations from a re-analysis of the deposited data

How the results depend on the processing

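No guidance gene and no partner gene passed in any of the 15 alternatives. Over all genes, DESeq2 called 58 and edgeR without a filter called 6, and the other alternatives called 0. Ift88 turned to 0.13 without control 2, and over libraries left out it ran from -0.16 to that value; the cause was not tested. The 10 guidance genes of smallest p kept the sign of their fold change in each alternative that gave a value, and Ntn5 had none with the filter of 1 CPM. Sema3c ran from -4.70 to -2.39 and Nrp2 from -1.52 to -0.72. Library totals alone moved the median of all genes to -0.33, and no filter moved it to 0.12. The count of guidance genes lower in both libraries of low Snap25 was 14 with a filter of 1 CPM and 19 with library totals. The same shares over all genes were not made for these settings. Library totals lower every gene in shIft88 3, whose composition factor was 0.598, so the rise says nothing particular to guidance genes. Neuron markers in place of Snap25, a list that holds Snap25, split the libraries in the same way, so the count of 15 was bound to recur. Without each library in turn, an alternative chosen after seeing the data, the count ran from 15 to 23, against 13.6% to 22.4% of all genes. It was highest without control 1. Leaving out a library can only keep or raise this count, so 15 was its lowest possible value. The median ratio of ligands to receptors was 0.759 per kb and 0.727 without length. No paired analysis was possible because replicate numbers were given in accession order. Genes under 1 CPM rest on few reads.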

Other observations

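Of the 47 guidance genes, 17 were lowest in shIft88 3, 12 in control 3 and 11 in control 1, and control 3 also had the highest value of 11; the same counts over all genes were not made. Sema3b and Sema3f were low together in control 3, which was chosen after the values were seen. Sema3b was at 23.3 to 37.7 CPM in libraries labelled shIft88, against 27.5 and 21.6 CPM in control 1 and 2 and 4.35 CPM in control 3. Sema3f was at 26.2 to 33.1 CPM in libraries labelled shIft88, against 34.7 and 32.7 CPM in control 1 and 2 and 8.55 CPM in control 3. In the same library the fibroblast gene Dcn was at 80.3 CPM and the transcription factor gene Otx2 at 31.3 CPM, against at least 1020 and 260 CPM in the other 5 libraries. Other genes of the mural and fibroblast list went the other way there: Col1a2 and Col3a1 were at their highest, at 254 and 2158 CPM, and the list summed to 2826 CPM, within the range of the other libraries. Whether these levels are linked was not tested.

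The 3 guidance genes that did not pass the filter were highest in the libraries with reads on olfactory receptor genes. These values were chosen after they were seen. Slit1 had 0.141, 0.336 and 0.375 CPM in libraries labelled shIft88, against 0.0303, 0.325 and 0.0494 CPM in controls. Sema5b had 0.170, 0.403 and 0.437 CPM in libraries labelled shIft88, against 0.0303, 0.358 and 0.148 CPM in controls. For Slit1, Sema5b and Robo3 the values of shIft88 2, shIft88 3 and control 2 exceeded those of each other library. These genes had at most 16 reads in a library, and the same comparison over all genes was not made. The part of such reads in these levels was not tested.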
